A study of Homo sapiens with 8 samples.

Results

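HCT-116 is an established human cell line from a colorectal carcinoma, and its transcriptome was compared between 1 library labelled as a knockdown of *TEAD1* to *TEAD4* together (siTEAD1/2/3/4), in which *TEAD3* was not lower than in the controls, and 2 libraries with the control siRNA (siNC 1 and siNC 2). These 3 of the 8 libraries of the series were chosen by their labels, and the remaining 5, each with other siRNA sequences, carried siRNAs against *YAP1* and *WWTR1* (siYAP/TAZ, 2 libraries) or against *HHEX* (siHHEX, 3 libraries). The study asked which genes depend on TEAD factors, YAP/TAZ and HHEX in this line. All cells were untreated apart from the siRNA. The siTEAD1/2/3/4 library received a pair of siRNAs at once, 1 directed at *TEAD1*, *TEAD3* and *TEAD4* and 1 at *TEAD2*, and the siNC libraries received 1 siRNA without a named target. As siTEAD1/2/3/4 has a single library, no difference of it has a replicate check, no p is given for a gene, and the spread is known only between the siNC libraries, for which separate cultures are not stated. The files hold FPKM values without counts, so the depth of the libraries is unknown, and 14235, 14157 and 14275 genes were above 0 in siNC 1, siNC 2 and siTEAD1/2/3/4.

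TEAD factors bind DNA through the TEA domain and hardly activate transcription alone. They recruit the coactivators YAP (*YAP1*) and TAZ (*WWTR1*), which the kinases of the Hippo pathway keep in the cytoplasm, and VGLL proteins compete for the same surface. In intestinal epithelium this axis is known for its part in regeneration and tumour growth, with *CTGF*, *CYR61* and *AXL* among its usual target genes.

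The siRNAs are shown because they define the perturbation. Each is given as the sense strand of 19 bases without its overhang, with capitals for the bases opposite the seed, which is bases 2 to 8 of the guide strand.
siTEAD1/3/4: ugaucaacuucAUCCACAa
siTEAD2: gccagaugcagUUGAUUCu
siNC: uucuccgaacgUGUCACGu
The first sequence occurs without mismatch in the coding part of exon 12 of 13 of *TEAD1* (chr11:12930244-12930262, + strand), *TEAD3* (chr6:35475400-35475418, - strand) and *TEAD4* (chr12:3040177-3040195, + strand), in GENCODE 44 transcripts of GRCh38. Its nearest stretch in *TEAD2* (chr19:49342502-49342520, - strand) differs from it by A3G, C5G, C8T, A12T and C14G, counted from 1 at the 5′ end of the siRNA sense strand with the siRNA base first. Both stretches are set out here, with the 5 differing bases in capitals.
TEAD1, TEAD3 and TEAD4 site: tgatcaacttcatccacaa
TEAD2 stretch: tgGtGaaTttcTtGcacaa
The siRNA against *TEAD2* was found without mismatch in exon 9 of that gene (chr19:49348703-49348721, - strand). Not every annotated coding transcript carries the shared site: it was in 4 of 5 for *TEAD1*, 2 of 2 for *TEAD3* and 3 of 7 for *TEAD4*, and the *TEAD2* site was in 7 of 7. Among the 10056 genes past the filter with a transcript sequence, the only other gene with a site of at most 2 mismatches was *ZFYVE26*, for the siRNA against *TEAD2*, and it was at 1.69 and 1.71 FPKM in the siNC libraries and 2.19 FPKM in siTEAD1/2/3/4.

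*TEAD4* and *TEAD1*, the most abundant of the 4 factors, were the ones with the lowest values relative to siNC. FPKM scales the fragments of a gene by its length and by the library total, so that levels can be set beside each other between genes. *TEAD4* was at 20.3 FPKM in siNC 1, 21.3 FPKM in siNC 2 and 5.56 FPKM in siTEAD1/2/3/4, 26.7% of the siNC mean. *TEAD1* was at 18.3, 19.04 and 9.02 FPKM in the same order, 48.4% of the siNC mean. The siTEAD1/2/3/4 value lay below both siNC values for each of them, and for *TEAD4* it was also the lowest of all 8 libraries, the next being 12.5 FPKM in siYAP/TAZ 1. *TEAD2* was at 4.10 and 3.47 FPKM in siNC and 2.73 FPKM in siTEAD1/2/3/4. *TEAD3*, whose site matches the siRNA in every base, was at 7.36 and 6.99 FPKM in siNC and 9.08 FPKM in siTEAD1/2/3/4, above both controls. On the log2(FPKM + 1) scale used throughout, which understates the change of low genes, the mean of the differences from the siNC libraries was -1.73 for *TEAD4*, -0.97 for *TEAD1*, -0.36 for *TEAD2* and 0.30 for *TEAD3*. The summed level of the 4 genes was 50.05 and 50.76 FPKM in siNC and 26.4 FPKM in siTEAD1/2/3/4, which is 52.4% of the siNC mean. *TEAD3* made up 14.7% and 13.8% of this sum in siNC and 34.4% in siTEAD1/2/3/4, and *TEAD4* 40.6% and 41.9% against 21.1%. Since the RNA is that of a whole culture, fewer cells with an mRNA and less of it per cell cannot be told apart.

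**Figure D1:**
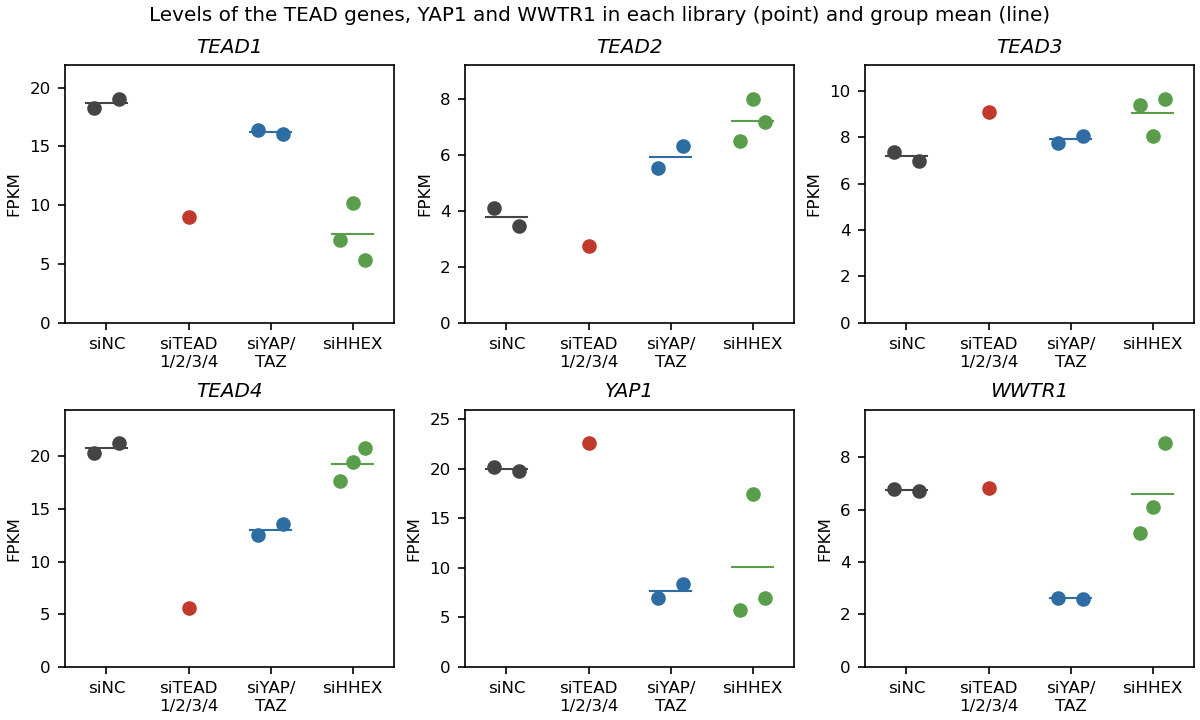
Level in FPKM (vertical axis, from 0) of *TEAD1* to *TEAD4*, *YAP1* and *WWTR1* in each of the 8 libraries (points) by group, with group means as lines where a group has more than 1 library. siTEAD1/2/3/4 lies below both siNC libraries for *TEAD1*, *TEAD2* and *TEAD4* and above both for *TEAD3* (9.08 against 7.36 and 6.99 FPKM).

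The coactivators were close to the controls. *YAP1* was at 20.2 and 19.7 FPKM in siNC and 22.6 FPKM in siTEAD1/2/3/4, and *WWTR1* at 6.80 and 6.72 FPKM against 6.84 FPKM. *VGLL4*, a TEAD cofactor that competes with YAP, was at 5.35 and 4.96 FPKM in siNC and 7.02 FPKM in siTEAD1/2/3/4, while *VGLL1*, *VGLL2* and *VGLL3* did not pass the filter. TEAD levels also differed between the other knockdowns. *TEAD1* was at 6.99, 10.2 and 5.30 FPKM in siHHEX, a range that includes the siTEAD1/2/3/4 value, and at 16.4 and 16.1 FPKM in siYAP/TAZ. *TEAD4* was at 12.5 and 13.6 FPKM in siYAP/TAZ.

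Across the genome siTEAD1/2/3/4 differed more from the siNC libraries than these did from each other, and somewhat more than the siYAP/TAZ libraries did from each other. Of 20030 rows, 10099 genes had at least 1 FPKM in at least 2 of the 3 libraries and were compared, and 9931 were not. The size of the log2 difference at the 95th percentile of these genes was 0.63 against siNC 1 and 0.62 against siNC 2, 0.24 between siNC 1 and siNC 2, and 0.56 between siYAP/TAZ 1 and siYAP/TAZ 2, which carried different siRNAs. Pearson's r across genes, which are not independent replicates, was 0.983 and 0.984 between siTEAD1/2/3/4 and the siNC libraries 0.998 between the siNC libraries and 0.986 between the siYAP/TAZ libraries. Against a single library, 89 genes differed by 2-fold from siNC 1 and 89 from siNC 2, and 46 between the siYAP/TAZ libraries. A gene is called lower or higher here when siTEAD1/2/3/4 differed from both siNC libraries by at least 2-fold in the same direction on this scale. Called genes are ranked by whichever of these differences is the change nearer 0, not by their mean. By this rule 43 genes were lower (0.426% of the genes compared) and 28 higher (0.277%), whereas siNC 1 and siNC 2 differed by 2-fold in 1 gene (0.0099%), *SMN1*, which has a near-identical copy. At 1.5-fold, 184 genes were lower (1.82%) and 266 higher (2.63%), against 13 between the siNC libraries (0.129%). In any size, 36.4% of genes were below both controls and 51% above both, and the median change of all genes was 0.05. The lower genes were the better expressed, with a median of 19.2 FPKM in siNC against 5.17 FPKM for the higher genes and 8.11 FPKM for all. Part of this contrast can follow from the rule, since a 2-fold fall on this scale needs at least 1 FPKM in siNC. The balance between the directions depends on the fold, as the counts at 1.5-fold show, and on the pseudocount. With 0.1 in place of 1, 63 genes were lower and 73 higher. At the 2-fold line, *AMOTL2* (the change nearer 0 being -1.0009, 14.3 and 14.6 FPKM against 6.65 FPKM) was just inside and *ALDH1A3* (-0.9987, 102 and 99.4 FPKM against 49.2 FPKM) just outside, and on the other side *EGR1* (1.0004) was inside and *MAN1A1* (0.9964, 11.2 and 11.2 FPKM against 23.4 FPKM) outside.

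**Figure D2:**
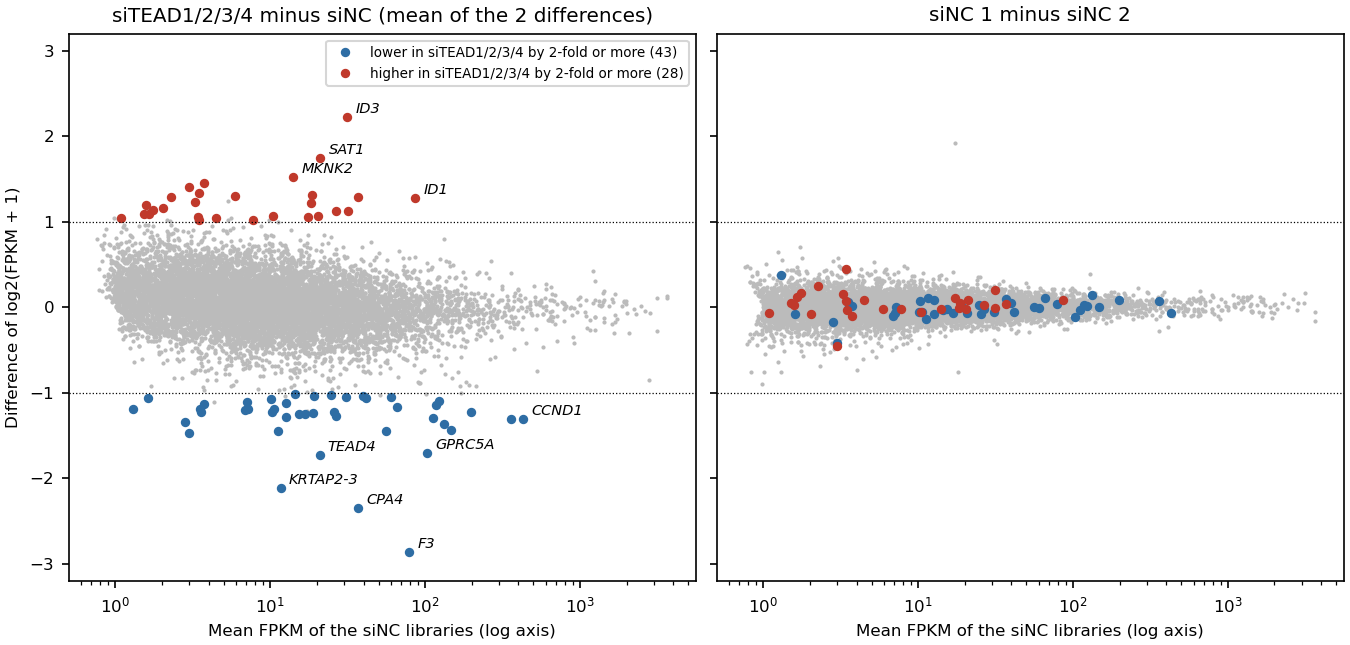
Difference of log2(FPKM + 1) (vertical axis) against the mean FPKM of the siNC libraries (horizontal log axis) for the 10099 genes compared, siTEAD1/2/3/4 minus siNC on the left and siNC 1 minus siNC 2 on the right, with the 2-fold lines dotted. The 43 lower (blue) and 28 higher (red) genes lie outside the lines on the left and inside them on the right.

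The lowest gene was *F3*, which encodes tissue factor, the starter of the extrinsic clotting cascade and a direct YAP/TEAD target (chr1:94529173-94541759, - strand, GRCh38). It was at 79.6 and 77.7 FPKM in siNC and at 9.93 FPKM in siTEAD1/2/3/4, 12.6% of the siNC mean, with a mean log2 change of -2.87. *CPA4*, a secreted carboxypeptidase, was at 38.2 and 35.8 FPKM against 6.48 FPKM, a change of -2.34. *KRTAP2-3*, a keratin-associated protein with close relatives whose reads may be shared, was at 12.2 and 11.2 FPKM against 1.92 FPKM, a change of -2.11. All 3 were lower in siTEAD1/2/3/4 than in any other library of the series. After *TEAD4* itself came *GPRC5A*, an orphan receptor induced by retinoic acid, at 99.5 and 107 FPKM against 31.1 FPKM, and *EMP1*, an epithelial membrane protein, at 56.0 and 55.7 FPKM against 19.9 FPKM. *FOSL1*, the AP-1 subunit FRA1, was at 148 and 147 FPKM against 53.8 FPKM. *COL12A1*, a fibril-associated collagen, was at 10.6 and 11.8 FPKM against 3.49 FPKM. In each of these 4 genes siTEAD1/2/3/4 lay far below siNC values that were close together, and for *COL12A1* it was also the lowest of the 8 libraries.

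The next of the 15 lowest genes included some of the more abundant ones. *CCND1*, which encodes the G1 cyclin D1, was at 419.8 and 441 FPKM in siNC and 174 FPKM in siTEAD1/2/3/4. In the other knockdowns *CCND1* was lower still, at 97.6 to 159 FPKM. *DKK1*, a secreted Wnt inhibitor that is itself a Wnt target, was at 366 and 348 FPKM against 143 FPKM. *DUSP5*, a nuclear phosphatase that inactivates ERK, was at 111 and 113 FPKM against 45.01 FPKM. Their log2 changes were -1.30, -1.31 and -1.29, and *ANXA3*, an annexin, had a similar one of -1.36 (139 and 127 FPKM against 51.1 FPKM). *SERTAD2*, a transcriptional regulator, was at 26.3 and 26.6 FPKM against 10.3 FPKM. The last of the 15 lowest by the change nearer 0 were *GAST* (gastrin, 2.43 and 3.57 FPKM against 0.428 FPKM) and *C1orf116* (2.57 and 3.03 FPKM against 0.498 FPKM). Both were weakly expressed in siNC and lowest of the 8 libraries in siTEAD1/2/3/4. For the 15 lowest genes other than *CPA4*, *TEAD4* and *GAST*, every other knockdown library also lay below both siNC libraries. Of the 28 genes called lower after these 15, *HIST1H2AJ* was listed at 0 in siTEAD1/2/3/4. For 22 of the 43 genes siTEAD1/2/3/4 was the lowest of the 8 libraries, as it was for 547 of the 10099 genes. These shares cannot be compared, because the 43 were chosen for a siTEAD1/2/3/4 value below both siNC libraries.

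**Figure D3:**
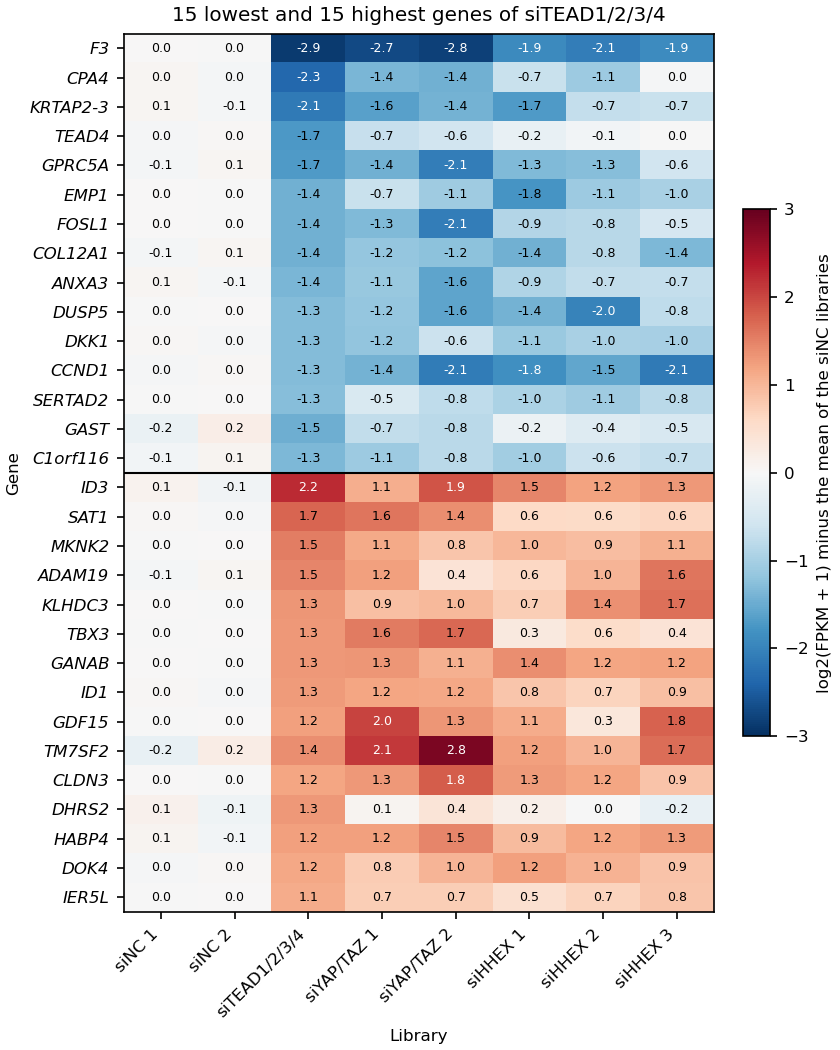
Difference of log2(FPKM + 1) of each library from the mean of the siNC libraries (color scale and printed values) for the 15 lowest and the 15 highest genes of siTEAD1/2/3/4 (rows, parted by a line), in all 8 libraries (columns). *F3* shows the deepest fall and *ID3* the largest rise in siTEAD1/2/3/4, and *TEAD4* and *DHRS2* stand out there from the other knockdowns.

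The YAP/TAZ/TEAD target signature, a published list of 22 genes, was mostly lower. Of 16 members past the filter, 14 were below both siNC libraries, where 36.4% of all genes were, 4 were called lower, where 0.426% of all genes were, and the median change was -0.64 against 0.05 over all genes. The 4 called members were *F3*, *NT5E* (an ectonucleotidase, 15.3 and 15.5 FPKM against 5.90 FPKM), *AXL* (a receptor tyrosine kinase, 18.9 and 18.9 FPKM against 7.43 FPKM) and *AMOTL2* (an angiomotin that binds YAP). *CTGF* and *CYR61*, the matricellular genes most used as readouts of YAP, were not called on this scale. *CTGF* was weakly expressed, at 1.62 and 1.76 FPKM in siNC and 0.424 FPKM in siTEAD1/2/3/4, which is 25.1% of the siNC mean in FPKM itself but a change of -0.92 on the log2 scale. *CYR61* was at 9.83 and 10.6 FPKM against 5.99 FPKM. Between these came *FJX1* (-0.75) and *CRIM1* (-0.74), followed by *MYOF* (-0.61), *DOCK5* (-0.56), *NUAK2* (-0.39) and *ASAP1* (-0.32). The remaining 4 members hardly differed from the controls. *LATS2*, the Hippo kinase that YAP/TEAD induces as feedback, was at 3.65 and 3.71 FPKM in siNC and 3.76 FPKM in siTEAD1/2/3/4. *PTPN14* (4.83 and 5.46 FPKM against 4.83 FPKM), *GADD45A* (31.5 and 29.2 FPKM against 28.8 FPKM) and *ARHGEF17* (1.62 and 2.04 FPKM against 1.67 FPKM) lay at or close to the nearer control. The 6 members that did not pass the filter were *ANKRD1*, *IGFBP3*, *FOXF2*, *CCDC80*, *TGFB2* and *RBMS3*, each at or near 0 in all 3 libraries.

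**Figure D4:**
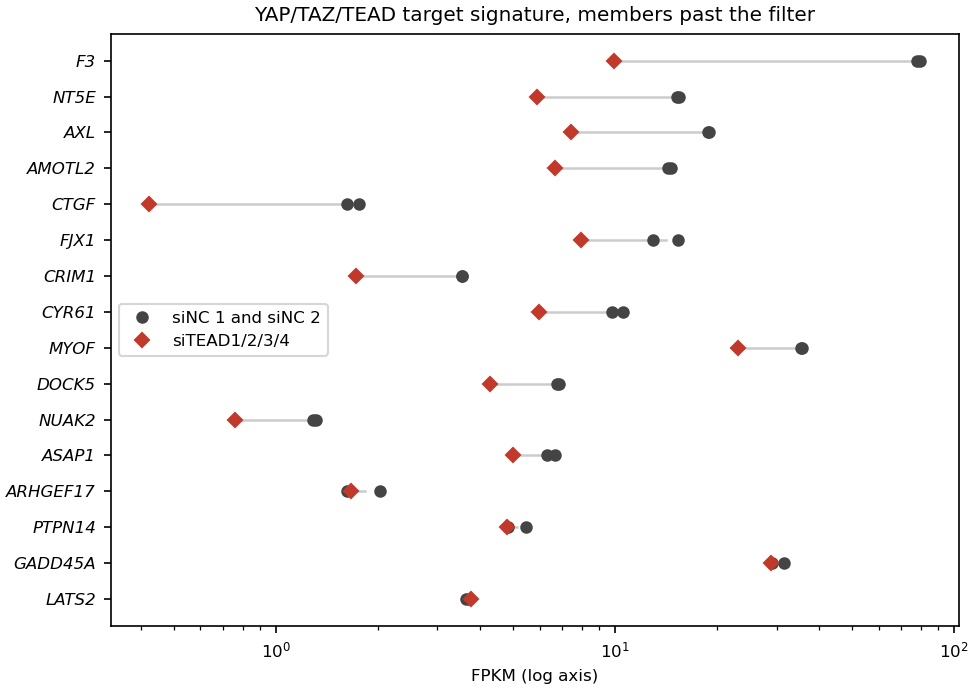
Level in FPKM (horizontal log axis) of the 16 members of the YAP/TAZ/TEAD target signature past the filter, in siNC 1 and siNC 2 (circles) and in siTEAD1/2/3/4 (diamonds). The gap is widest for *F3* and *CTGF*, and closed for *LATS2*, *GADD45A*, *PTPN14* and *ARHGEF17*.

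Promoters were searched for CATTCC, the core of the TEAD motif, on either strand, in the window from 250 bases before to 50 after the start of each gene in RefSeq (GRCh38.p14). The letters were in 9 of the 31 promoters found for the lower genes (29.0%), in 4 of 25 for the higher genes (16%), in 4 of 10 for the signature genes past the filter (40%), in 10.5% of the 8282 for all genes compared and in 14.05% of the 27305 in the table. The 4 signature genes with a match were *LATS2*, *CTGF*, *PTPN14* and *NUAK2*. None of them was called, and *LATS2* and *PTPN14* hardly differed from the controls. A match is a description and not a binding site. The promoters of *CPA4* and *COL12A1*, called lower, and of *CTGF*, which holds 3 matches, are shown 5′ to 3′ on the strand of the gene, with each match in capitals.
CPA4, chr7:130292911-130293210, + strand: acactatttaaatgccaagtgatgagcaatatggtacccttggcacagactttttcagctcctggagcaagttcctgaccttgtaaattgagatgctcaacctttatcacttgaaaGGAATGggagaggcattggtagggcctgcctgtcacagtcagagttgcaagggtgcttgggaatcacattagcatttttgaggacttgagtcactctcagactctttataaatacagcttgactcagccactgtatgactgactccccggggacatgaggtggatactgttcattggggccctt
COL12A1, chr6:75206004-75206303, - strand: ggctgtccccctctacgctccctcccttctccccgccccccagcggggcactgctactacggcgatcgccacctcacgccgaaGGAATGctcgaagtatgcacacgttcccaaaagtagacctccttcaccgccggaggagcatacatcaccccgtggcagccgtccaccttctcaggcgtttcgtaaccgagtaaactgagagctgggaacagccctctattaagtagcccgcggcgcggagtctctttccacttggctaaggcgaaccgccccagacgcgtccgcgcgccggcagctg
CTGF, chr6:131951323-131951622, - strand: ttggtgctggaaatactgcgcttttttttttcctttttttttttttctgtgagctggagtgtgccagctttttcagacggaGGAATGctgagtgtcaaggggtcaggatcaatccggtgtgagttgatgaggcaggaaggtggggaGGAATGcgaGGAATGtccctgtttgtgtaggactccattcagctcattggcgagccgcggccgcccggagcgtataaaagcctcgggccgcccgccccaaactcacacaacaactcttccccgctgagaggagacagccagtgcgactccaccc
The match begins at base -134 from the start in *CPA4* and at -167 in *COL12A1*, and the 3 in *CTGF* begin at -169, -104 and -95.

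Genes of the Hippo pathway itself were split. Of 19 kinases, adaptors and upstream regulators past the filter, 10 were below both controls (against 36.4% of all genes) and 7 above both (against 51%), with a median of -0.07, and *AMOTL2* was the only one called. Here and in the lists that follow, members named beyond those called and those with the lowest and the highest change were chosen after their values were seen. Over all genes 0.426% were called lower and 0.277% higher, so that a list of these sizes would often hold no called gene. *SAV1*, the adaptor of the MST kinases, was at 19.3 and 19.5 FPKM in siNC and 11.1 FPKM in siTEAD1/2/3/4, and *AMOTL1*, a paralog of *AMOTL2*, was at 3.76 and 3.71 FPKM against 5.64 FPKM. The angiomotin paralogs thus differed from the controls in opposite directions.

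AP-1 factors, which share many enhancers with TEAD, were lower in part. Of 11 past the filter, 7 were below both controls (against 36.4% of all genes) and 3 above both, and *FOSL1* was the only one called. *JUNB* was at 50.8 and 51.9 FPKM against 31.6 FPKM, a change of -0.68, and *ATF3* at 5.90 and 5.88 FPKM against 3.95 FPKM. *FOS* (1.46 and 1.88 FPKM against 2.30 FPKM) and *JUN* (2.63 and 3.44 FPKM against 3.82 FPKM) were low and above both controls. Among 14 ERK feedback and ETS genes past the filter, 7 were below both controls (against 36.4% of all genes) and 6 above both (against 51%). The median was -0.08. *FOSL1* and *DUSP5* were called lower, where 0.426% of all genes were, and *EGR1*, an immediate early factor, higher, where 0.277% were. *EGR1* was at 4.604 and 4.29 FPKM against 10.2 FPKM, the highest of the 8 libraries, and its call ended under median scaling and with a trend on GC content and length taken off. *SPRY4*, an inhibitor of receptor signalling to ERK (7.86 and 8.36 FPKM against 11.4 FPKM), and *ETV1*, an ETS factor (1.68 and 1.504 FPKM against 3.15 FPKM), were above both controls, so that the members of the list differed from siNC in both directions. None of 7 EGFR family genes past the filter was called, and they ran from *HBEGF*, a ligand, at -0.57 to *ERBB3*, a receptor, at 0.67.

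Caveolae, flask-shaped pits of the cell membrane, had 5 of 7 genes past the filter below both controls, where 36.4% of all genes were, and a median of -0.45. *CAV2* was called, at 68.3 and 63.1 FPKM against 28.7 FPKM, a call that ended with a trend on GC content and length taken off, and its partner *CAV1*, at 188 and 179.8 FPKM against 99.5 FPKM (-0.88), was not. The coat genes *CAVIN3* (-0.54) and *CAVIN1* (-0.43) were also below both controls, and *EHD2* lay between them. Keratins and their associated protein were below both controls for 9 of 11 (against 36.4% of all genes), with a median of -0.42. This list, which counts *KRTAP2-3*, was like the others written with earlier results of these data known. *KRT81*, a hair keratin with close relatives, was called (1.55 and 1.68 FPKM against 0.252 FPKM), next to *KRTAP2-3*. *KRT80* (5.70 and 6.37 FPKM against 2.88 FPKM) and *KRT7* (5.94 and 6.53 FPKM against 3.85 FPKM) came next. The main keratins of simple epithelium were among the most abundant mRNAs and differed less from siNC: *KRT18* was at 900.5 and 917 FPKM against 681 FPKM, *KRT19* at 696 and 718 FPKM against 538 FPKM and *KRT8* at 1591 and 1707 FPKM against 1341 FPKM.

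Cell shape and matrix genes lay on both sides of the controls. Of 32 genes of the actin cytoskeleton past the filter, 22 were below both controls and 7 above both, against 36.4% and 51% of all genes, with a median of -0.16. The only gene of the list called lower was *ANXA3*, an annexin. *TPM4*, a tropomyosin whose reads may be shared with its paralogs, was called higher (27.0 and 26.4 FPKM against 59.7 FPKM). The other knockdowns were at 57.5 to 80.6 FPKM for *TPM4*. *FSCN1*, which bundles actin, was at 164 and 178 FPKM against 84.5 FPKM and missed the call by its difference from siNC 1 (-0.95), and *ACTG1*, cytoplasmic gamma actin, was at 2756 and 2815 FPKM against 1543 FPKM. *EZR*, the ezrin gene, was at 527 and 531 FPKM against 316 FPKM. Of 19 matrix and plasminogen system genes, 13 were below both controls (against 36.4% of all genes), *COL12A1* and *TIMP2* (a metalloprotease inhibitor, 30.3 and 31.6 FPKM against 14.47 FPKM) were called, and *THBS1* (thrombospondin, -0.76) followed, while *MMP14*, a membrane metalloprotease, was above both controls (0.75). None of 8 integrin subunits was called. *ITGB1*, the common beta subunit, was at 96.2 and 90.5 FPKM against 55.0 FPKM.

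**Figure D5:**
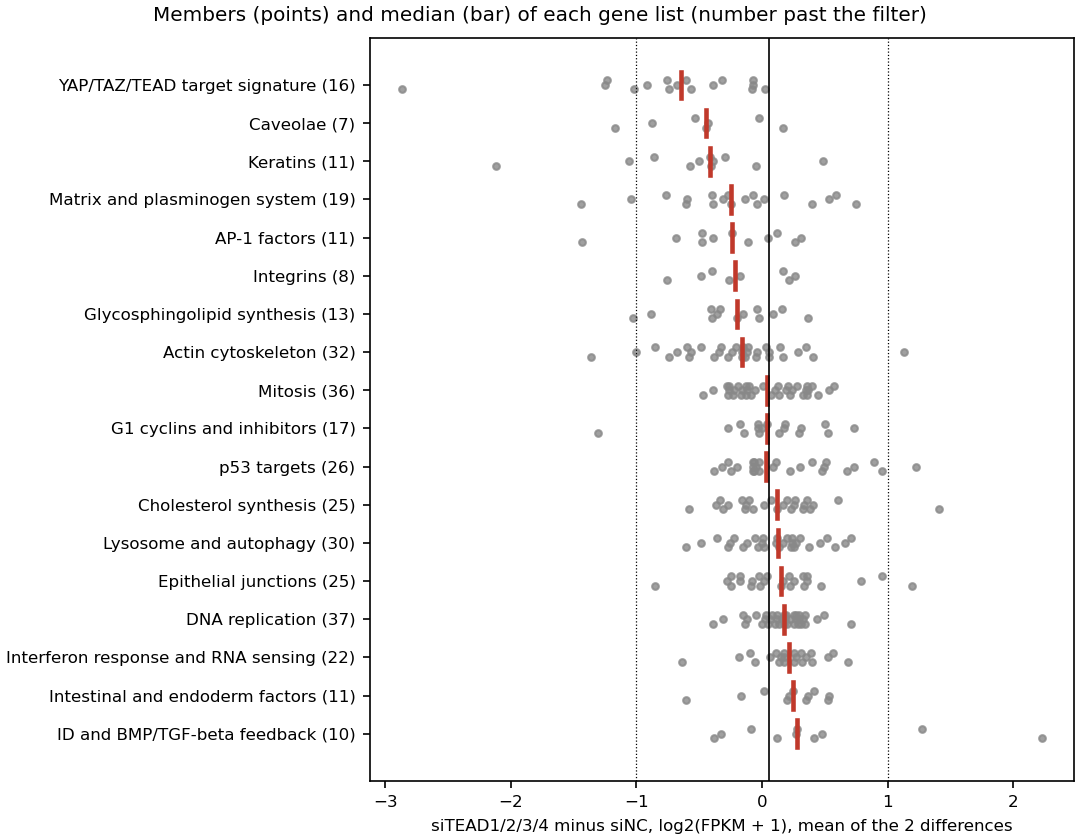
Difference of log2(FPKM + 1) between siTEAD1/2/3/4 and siNC (horizontal axis, mean of the differences from both siNC libraries) for the members past the filter of 18 gene lists (points, number in brackets) with the list median (red bar), the median of all genes (line at 0.05) and the 2-fold lines (dotted). The median of the YAP/TAZ/TEAD target signature (-0.64) lies to the left of the line at 0.05, and that of the ID and BMP/TGF-beta feedback list (0.28) to the right. The 18 lists were picked from 33. Those not drawn include lists with medians near 0, such as the Hippo pathway (-0.07) and Notch (0.06), and the colorectal epithelium markers (-0.27).

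Among the higher genes, *ID3* and *ID1* stood first and eighth by the change nearer 0. They encode inhibitors of differentiation, helix-loop-helix proteins that block basic helix-loop-helix factors and are induced by BMP signalling. *ID3* (chr1:23557926-23559501, - strand) was at 33.5 and 28.9 FPKM in siNC and 149 FPKM in siTEAD1/2/3/4, 4.79 times the siNC mean, and *ID1* at 88.6 and 83.8 FPKM against 210.2 FPKM. Both were higher in siTEAD1/2/3/4 than in any other library, but the other knockdowns also lay above siNC, with *ID3* between 67.9 and 118 FPKM and *ID1* between 138 and 198 FPKM. *ID2*, at 57.4 and 53.7 FPKM against 60.3 FPKM, was close to the controls, and *ID4* did not pass the filter. Of the 10 ID, BMP and TGF-beta feedback genes past the filter, 7 were above both controls (against 51% of all genes), with a median of 0.28 and only *ID1* and *ID3* called. *BMP4*, a ligand of the pathway, was at 113 and 108 FPKM against 154 FPKM, and *SMAD7*, its feedback inhibitor, at 2.52 and 2.08 FPKM against 3.38 FPKM.

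*SAT1*, the rate-limiting enzyme of polyamine breakdown, was second, at 21.7 and 20.5 FPKM against 73.0 FPKM, 3.46 times the siNC mean. *MKNK2*, a kinase of the translation factor eIF4E, was at 13.9 and 14.1 FPKM against 42.1 FPKM. *ADAM19*, a membrane metalloprotease, was at 3.59 and 3.92 FPKM against 12.05 FPKM. These were followed by *KLHDC3*, a substrate receptor of a ubiquitin ligase (18.8 and 18.2 FPKM against 47.6 FPKM), *TBX3*, a T-box repressor (5.84 and 5.94 FPKM against 16.0 FPKM), and *GANAB*, the glucosidase that trims new glycoproteins (37.4 and 36.3 FPKM against 91.7 FPKM). *DHRS2*, a short-chain dehydrogenase, was at 2.55 and 1.99 FPKM in siNC, at 6.99 FPKM in siTEAD1/2/3/4 and at no more than 3.27 FPKM in any other library. *IER5L* was at 31.5 and 31.6 FPKM against 69.9 FPKM, again the highest of the 8 libraries. *HABP4*, which binds RNA and hyaluronan, and *DOK4*, a docking protein of receptor tyrosine kinases, were at 9.02 and 5.81 FPKM against siNC means of 3.28 and 2.03 FPKM. For the genes named so far in this paragraph except *DHRS2*, every other knockdown library also lay above both siNC libraries. There *GANAB* was at 78.0 to 98.0 FPKM and *KLHDC3* at 31.8 to 60.7 FPKM. siTEAD1/2/3/4 was the highest of the 8 libraries for 10 of the 28 higher genes and for 801 of the 10099 genes. Again the shares cannot be compared, as the 28 were chosen for a siTEAD1/2/3/4 value above both siNC libraries. Taking off a trend on GC content and length ended the call of 10 of the 28, *IER5L*, *EGR1* and *SOX4* among them, and median scaling that of 8.

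Junction genes of epithelia were above both controls in 14 of 25 and below in 10, with a median of 0.15, where 51% of all genes were above and 36.4% below. *CLDN3*, a sealing claudin, was called, at 1.596 and 1.544 FPKM against 4.87 FPKM, and *TJP3*, a scaffold of tight junctions, was at 1.58 and 1.89 FPKM against 4.299 FPKM. *DSC2*, a desmosomal cadherin, was at 6.33 and 6.44 FPKM against 11.8 FPKM. *OCLN*, which encodes occludin, went the other way, at 4.43 and 4.52 FPKM against 2.03 FPKM. Of 11 transcription factors of intestinal epithelium and endoderm, 8 were above both controls, where 51% of all genes were, with a median of 0.25 and none called. *FOXA3* (3.72 and 3.65 FPKM against 5.80 FPKM) had the highest change and *KLF5*, a factor of crypt cells (24.8 and 24.4 FPKM against 15.8 FPKM), the lowest. Among 10 Wnt targets past the filter only *DKK1* was called. *RNF43* and *AXIN2*, feedback inhibitors of Wnt signalling, were at 13.7 FPKM against 6.61 and 6.72 FPKM and at 8.09 FPKM against 4.33 and 5.44 FPKM.

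HCT-116 is known to carry intact p53, and targets of this tumour suppressor had a median of 0.03 over 26 genes, 13 of them above both controls (against 51% of all genes) and 11 below (against 36.4%). *GDF15*, a stress cytokine, was called, at 18.2 and 18.3 FPKM against 43.99 FPKM. *BBC3*, the death gene PUMA, was at 4.33 and 4.08 FPKM against 9.08 FPKM, while *CDKN1A*, the p21 inhibitor, was at 97.7 and 99.03 FPKM against 96.98 FPKM. Of 22 genes of the interferon response and RNA sensing, 18 were above both controls (against 51% of all genes), with a median of 0.21, and none differed by 1.5-fold from both controls on the log2(FPKM + 1) scale. The most abundant, *ISG15*, was at 136 and 149 FPKM against 205 FPKM, and *IFIT5* at 7.65 and 7.02 FPKM against 4.36 FPKM was the lowest.

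*CCND1* was the sole called member of the cell cycle lists, where 0.426% of all genes were called lower and 0.277% higher. None of 37 DNA replication genes was called, 28 were above both controls (against 51% of all genes) and the median was 0.17 against 0.05 over all genes, with *GINS4*, a subunit of the replicative helicase, at 0.71 and *UHRF1*, which maintains DNA methylation, at -0.39. None of 36 mitotic genes was called either, 17 were below both controls (against 36.4% of all genes) and 17 above both (against 51%), and the median was 0.04. Among 17 G1 genes, *RBL2*, a relative of the retinoblastoma protein (1.74 and 1.59 FPKM against 3.42 FPKM, 205% of the siNC mean), had the highest change, followed by *CDKN2C*, a CDK inhibitor (0.52), and the differences of the cyclin D partners *CDK4*, which lay between the controls, and *CDK6* were -0.03 and -0.15. The 83 genes of cytosolic ribosomal proteins, the 78 of mitochondrial ones and the 79 of the respiratory chain held no called gene, with medians of 0.04, -0.04 and 0.03. At the shares called over all genes, a list of this size would often hold none.

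Metabolic lists are given with their called genes, where 0.426% of all genes were called lower and 0.277% higher. *ACLY*, which makes cytosolic acetyl-CoA from citrate, was called lower, at 60.4 and 60.7 FPKM against 28.9 FPKM, and no other library was under 42.7 FPKM. It was the only one called of 15 fatty acid synthesis genes, whose median was 0.01 and turned below 0 with either siNC library alone. *TM7SF2*, a sterol reductase, was the only one called of 25 cholesterol synthesis genes, at 2.38 and 3.62 FPKM against 9.47 FPKM, with a list median of 0.12. *UGCG*, which makes glucosylceramide, was at 25.1 and 24.6 FPKM against 11.7 FPKM, a call that also ended with the correction for GC content, and *B4GALT5*, which makes the next glycolipid of the path, at 89.1 and 94.6 FPKM against 49.4 FPKM. These were the lowest of 13 glycosphingolipid genes, of which 10 were below both controls (against 36.4% of all genes) with a median of -0.20. *SLC2A1*, the glucose transporter GLUT1, had the lowest change of 29 glycolysis and hypoxia genes, at 184 and 198 FPKM against 101 FPKM, and was not called, nor was any of the others. No called gene was in the ATF4 stress response (24 genes, median -0.06), the chaperones of the unfolded protein response (20 genes, -0.0026), Notch (11 genes, 0.06), apoptosis (12 genes, 0.12) or lysosome and autophagy (30 genes, 0.13). At the shares called over all genes, lists of this size would often hold none.

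*TAX1BP3* and *SET*, chosen here after their values were seen, were lowest of the 8 libraries in siTEAD1/2/3/4. *TAX1BP3*, a PDZ protein, was at 18.7 FPKM in siTEAD1/2/3/4 and between 38.8 and 63.0 FPKM in the 7 other libraries. *SET*, a histone chaperone with pseudogenes that may share its reads, was at 205 and 193 FPKM in siNC, at 84.1 FPKM in siTEAD1/2/3/4 and between 118 and 169 FPKM in the other knockdowns, which were thus all below both controls. These comparisons use the same siNC libraries as those of the other knockdowns and were not tested. For *AXL* the siYAP/TAZ libraries (5.23 and 6.48 FPKM) were lower than siTEAD1/2/3/4 (7.43 FPKM), as for *AMOTL2* (1.72 and 2.24 FPKM against 6.65 FPKM) and *CTGF* (0.209 and 0.0794 FPKM against 0.424 FPKM), whereas *CPA4* (13.6 and 12.9 FPKM against 6.48 FPKM) and *NT5E* (13.1 and 10.5 FPKM against 5.90 FPKM) were lower in siTEAD1/2/3/4. For *F3* the values were close, at 11.3 and 10.4 FPKM against 9.93 FPKM.

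Several measures moved with the comparison, and their part in it was not tested. The log2 change of a gene had a Spearman coefficient with the GC content of its transcript of 0.33 against siNC 1 and 0.25 against siNC 2 over 10056 genes, and the difference of siNC 1 from siNC 2 one of -0.23. The median GC content was 48.4% for the lower genes, 56.4% for the higher and 48.8% for all. With a trend on GC content and length taken off, 42 genes were lower and 19 higher. An siRNA guide can also lower mRNAs through its seed, so the 3′ UTRs of 9930 genes were searched on the mRNA strand for the 7 bases complementary to each seed. The match of the siRNA against *TEAD1*, *TEAD3* and *TEAD4*, ATCCACA, was in 979 of them (9.86%), whose median change was 0.03 against 0.05 in the others, and 9 of these (0.919%) were called lower against 34 of the others (0.380%). For the siRNA against *TEAD2*, TTGATTC was in 1237 genes (12.5%), with a median of 0.01 against 0.06 and 8 called lower (0.647%) against 35 (0.403%). Genes with either word had longer 3′ UTRs, with medians of 3245 against 1176 bases and 3226 against 1131 bases. The match of the siNC guide, TGTCACG, was in 304 genes, with a median of 0.10 against 0.05, and 2 of these (0.658%) were called lower against 41 of the others (0.426%). Of the 304 genes, 0 were called higher, where 0.277% of all genes were. They had a median 3′ UTR of 2690.5 bases against 1285 in the others.

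Markers of the epithelial origin of the line were detected in all 3 libraries. Of 10 markers of colorectal epithelium, 6 passed the filter, led by *KRT8*, and 4 of these (*KRT8*, *KRT18*, *KRT19* and *EPCAM*) were below both controls (against 36.4% of all genes), with a median of -0.27 against 0.05 over all genes and none called. The values were, for example, *EPCAM* at 174 and 162 FPKM in siNC and 141 FPKM in siTEAD1/2/3/4 and *CDH1* at 9.16 and 9.52 FPKM against 10.5 FPKM. *VIL1*, *CEACAM5*, *TFF3* and *LGALS4*, markers of differentiated colon cells, were at or near 0 in all 3 libraries. The 10 markers summed to 3374 and 3517 FPKM against 2717 FPKM. None of 8 fibroblast or 7 leukocyte and endothelial markers passed the filter, with sums of 0.999 and 0.828 FPKM against 1.69 FPKM and of 0.233 and 0.169 FPKM against 0.123 FPKM. The most abundant of these was *COL1A1*, at 0.915 and 0.821 FPKM against 1.59 FPKM, and *PTPRC*, the pan-leukocyte marker, was at no more than 0.01198 FPKM in these 3 libraries.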

How the data were processed

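RNA of HCT-116 cells was extracted with Trizol and prepared with Illumina protocols, per the labels. The authors deposited FPKM values per gene, and the submitters' processing notes name Trimmomatic 0.36, HISAT2 2.0.5, Cufflinks 2.2.1 and HTSeq 0.9.1. The genome build and annotation used for the RNA-seq are not given in the sources used here. Counts and depth are unknown, so no counting interval is given.

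The 3 libraries were grouped by their labels. Differences were taken on log2(FPKM + 1) for genes with FPKM of at least 1 in at least 2 of the 3 libraries, without a test, and a call needed 2-fold against both siNC libraries. The genes, lists and rules were chosen with earlier results of these data known. Named were *TEAD1* to *TEAD4*, *YAP1*, *WWTR1*, the 15 lowest and 15 highest called genes, the signature, markers, and per list the called members or those with the lowest and highest change. Of the rows, 27 carry date-like names and were not renamed.

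Alternatives were a pseudocount of 0.1, each siNC library alone, median scaling, natural splines with 4 degrees of freedom on GC content and length, no filter, FPKM of at least 5, 1.5-fold, the FPKM ratio, and limma on all 8 libraries with siTEAD1/2/3/4 taking its spread from the other groups, where the siYAP/TAZ and siHHEX libraries carried different siRNAs and are not replicates of 1 siRNA. siRNAs, GC content and 3′ UTRs were matched to GENCODE 44 (GRCh38), by symbol or older symbol for 99.6% of the genes compared, and promoters to RefSeq. Scripts were tested on simulated data. Python 3.11.15, numpy 2.4.6, pandas 2.3.3, scipy 1.17.1, patsy 1.0.2, matplotlib 3.10.9, R 4.3.3 and limma 3.58.1 were used. Other assays of the study were not analysed here.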

Additional observations from a re-analysis of the deposited data

Results flagged for a closer look

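*AKAP12*, which encodes a scaffold of protein kinase A, was called lower in siTEAD1/2/3/4 and lay close to the controls in siYAP/TAZ. It was at 124 and 122 FPKM in siNC, at 57.0 FPKM in siTEAD1/2/3/4 (a mean log2 change of -1.0926) and at 128 and 131 FPKM in siYAP/TAZ (0.08), and the siHHEX libraries were at 44.3, 67.8 and 73.1 FPKM. It is listed because both siYAP/TAZ libraries lay above the siNC libraries and siTEAD1/2/3/4 below them, but the siYAP/TAZ difference is smaller than the 0.24 that 95% of genes did not exceed between siNC 1 and siNC 2. The difference was not tested, and the comparisons share the siNC libraries.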

How the results depend on the processing

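No paired analysis was possible because siTEAD1/2/3/4 has 1 library, and its label gives no replicate number. The 43 lower and 28 higher genes became 184 and 266 at 1.5-fold, 68 and 81 by the FPKM ratio without a pseudocount, and 19 and 9 at an adjusted p under 0.05 in limma (414 and 879 at an unadjusted p under 0.05). The higher genes numbered 73 with a pseudocount of 0.1 and 14 with FPKM of at least 5. Without one or the other siNC library there were 48 to 50 lower and 39 to 41 higher genes. Of the called genes, 39 of 43 and 16 of 28 kept their call under the pseudocount, both single siNC libraries, median scaling and the GC correction. With FPKM of at least 5, 36 and 14 of them were still called, and at an adjusted p under 0.05 in limma 16 and 9, without *AXL*, *AMOTL2*, *NT5E*, *FOSL1*, *CCND1*, *DUSP5*, *EMP1*, *COL12A1*, *GPRC5A* and *KRTAP2-3* among others. *TEAD1* was at -1.0392 (pseudocount of 0.1) and -1.0222 (median scaling), *TEAD3* at 0.2529 (median scaling) and 0.1985 (GC correction), and *TEAD4* at -1.8842, -1.7811 and -1.8241 under the pseudocount, median scaling and GC correction. With 1 siNC library left out, *TEAD1* ranged from -0.9997 to -0.94, *TEAD2* from -0.45 to -0.26, *TEAD3* from 0.27 to 0.34 and *TEAD4* from -1.76 to -1.70. The median of the YAP/TAZ/TEAD target signature was -0.7344 (pseudocount), -0.6949 (median scaling), -0.3526 (no filter), -0.7166 (FPKM of at least 5) and -0.6258 to -0.6163 with 1 siNC library. Of 231 medians of 33 lists under alternatives, 118 moved by more than the siNC spread, and 24 in 13 lists changed sign, none of them with a main size above 0.0982. Without siNC 2 the medians of Hippo (-0.07), mitosis (0.04), ERK (-0.08), EGFR (-0.10), ATF4 (-0.06) and the respiratory chain (0.03) were -0.0026, 0.0084, -0.04, -0.06, -0.04 and 0.05. Without siNC 1 those of apoptosis (0.12), p53 targets (0.03), Notch (0.06), G1 (0.04), cholesterol (0.12) and the unfolded protein response (-0.0026) were 0.06, 0.07, 0.02, -0.02, 0.08 and 0.01. The fatty acid median (0.01) was -0.02 with either left out, that of lysosome (0.13) was 0.02 with FPKM of at least 5, and without a filter those of the interferon list (0.21), intestinal factors (0.25), AP-1 (-0.24), matrix (-0.25), integrins (-0.22), ID and BMP/TGF-beta (0.28) and junctions (0.15) were 0.08, 0.07, -0.06, -0.04, -0.05, 0.15 and 0.06. The order of the list medians also changed between settings. Depth is unknown, and genes of low FPKM are the least certain.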
